A study of Homo sapiens with 4 samples.

Results

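The BCL2 family of apoptosis regulators was followed through 10 of its genes, 4 that protect cells from death (BCL2L1, BCL2, BCL2L2 and MCL1) and 6 that promote it (BAX, BAK1, BID, BCL2L11, PMAIP1 and BMF). Every probe set whose platform annotation named exactly 1 gene, that gene being one of these 10, was used, which gave 32 probe sets of 37465, for 10 genes of 18304. The pro-survival and the pro-death genes had 16 probe sets each. The samples were 4 RNA preparations of the U87 cell line, established from a human glioma, all of them with QK (QKI, an RNA-binding protein) knocked down. Of these, 2 came from cells transduced with miR-20a and 2 from cells transduced with miR-NT, a scrambled microRNA without a target. How QK was knocked down and how long the cells were kept is not given in the sources used here, and no cells without the knockdown were analysed here. Each array gives every probe set a single deposited level on the log2 scale, with no detection call.

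Proteins of the BCL2 family decide whether the outer mitochondrial membrane stays closed. BAX and BAK1 form the pores that release cytochrome c, the pro-survival proteins hold them in check, and the BH3-only proteins, among them BIM (BCL2L11), NOXA (PMAIP1), BID and BMF, neutralise the pro-survival proteins or activate the pore formers. Gliomas are known for high levels of the pro-survival proteins BCL-xL (BCL2L1) and MCL1, and BIM is a published target of the microRNA cluster that holds miR-20a.

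A microRNA recognises transcripts mainly through its seed, bases 2 to 8. The mature sequences below are from RefSeq (GRCh38.p14) and are shown because they define which other microRNAs share the target preference of the one supplied. The seed is in capitals, and each sequence runs 5′ to 3′. The miR-20a sequence lies at chr13:91351072-91351094 on the plus strand. The sequence that was cloned for transduction is not given in the sources used here.
hsa-miR-20a-5p: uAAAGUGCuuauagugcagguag
hsa-miR-17-5p: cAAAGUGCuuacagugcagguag
hsa-miR-20b-5p: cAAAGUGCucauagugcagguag
hsa-miR-106a-5p: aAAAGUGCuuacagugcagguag
hsa-miR-93-5p: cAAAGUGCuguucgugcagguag
hsa-miR-106b-5p: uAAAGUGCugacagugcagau
Of 2545 mature microRNAs in the RefSeq table, 8 carried this seed, the 6 printed here and miR-519d-3p and miR-526b-3p. Counted position by position from the 5′ end, miR-17-5p, miR-20b-5p and miR-106a-5p matched miR-20a-5p at 21 positions, miR-93-5p at 19 and miR-106b-5p at 18.

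Cells given miR-20a were compared with those given miR-NT by a limma fit over all 37465 probe sets that name 1 gene, with Benjamini-Hochberg adjustment and a threshold of 0.05. Of these, 62 passed, which is 0.165%, with 55 higher (0.147%) and 7 lower (0.0187%). An unadjusted p under 0.05 was reached by 18.0% of them, 9.57% higher and 8.41% lower, and in 49.0% of all probe sets the groups did not overlap, 21.8% higher and 27.2% lower. Arrays correlated at r = 0.9946 within miR-20a, 0.9961 within miR-NT and between 0.9908 and 0.9935 across the groups. For the actin controls (ACTB), the 3′ probe set exceeded the 5′ one, a sign of RNA quality, by 0.52 and 0.46 log2 units on the miR-20a arrays and 0.20 and 0.35 on the miR-NT arrays. It thus moved with the groups in every comparison below, and its part in the results was not tested. Among glioma markers, VIM (vimentin) averaged 14.67 log2 units and CD44 12.55 over the 4 arrays, whereas NES, SOX2, GFAP, OLIG2 and S100B averaged 8.10, 7.01, 7.12, 6.44 and 4.91. The summed log2 level of the 7 was 60.60 and 60.53 on the miR-20a arrays and 61.23 and 60.85 on the miR-NT arrays, without overlap. Changes were -0.21 for NES, -0.25 for SOX2, -0.21 for OLIG2 and -0.02 for VIM (adjusted p = 0.33, 0.36, 0.40 and 0.93 by limma). CD44 had a change of 0.18, and GFAP and S100B had 0.02 each. The summed log2 level of 4 epithelial markers was 23.16 and 23.43 on the miR-20a arrays and 23.73 and 23.16 on the miR-NT arrays. EPCAM, CDH1, KRT19 and KRT5 averaged 4.66, 5.06, 6.44 and 7.21, so the last pair read no lower than OLIG2. The sum of 4 endothelial markers was 26.07 and 26.29 on the miR-20a arrays, against 26.62 and 26.69 on the miR-NT arrays, also without overlap. That of 3 blood markers was 20.24 and 21.32 on the miR-20a arrays, against 21.04 and 20.88 on the miR-NT arrays. CD3E, a blood marker, averaged 7.86, and PECAM1, an endothelial one, 8.70. CD3E and the endothelial marker ERG were lower without overlap, by -0.28 and -0.34 (adjusted p = 0.22 and 0.16 by limma). Changes of the others were 0.08 for PTPRC, 0.02 for CD14, -0.06 for PECAM1, -0.09 for VWF and 0.02 for CDH5. None of QKI's 10 probe sets passed the test, with changes between -0.43 and 0.18 (smallest adjusted p = 0.16 by limma). In these bulk samples a change of a transcript in every cell and a change in the share of cells that carry it cannot be told apart.

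Of the 32 probe sets of the family, 0 passed the threshold over all probe sets (limma), beside 0.165% of the whole table. Without adjustment, 6 had a p below 0.05 (limma), a share close to the 18.0% of all probe sets in either direction. All 6 were lower in miR-20a cells, while the whole table had 8.41% lower and 9.57% higher. An eBayes fit with a mean-variance trend and robust estimation passed 2, both of BCL2L1. The 6 were the 4 probe sets of BCL2L1, 1 of BCL2 and that of BMF. Groups did not overlap for 9 probe sets that were lower and 6 that were higher in miR-20a cells, a share close to the 49.0% of all probe sets. The family's median log2 change was -0.02, the same to 2 decimals as the median of all probe sets.

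**Figure D1:**
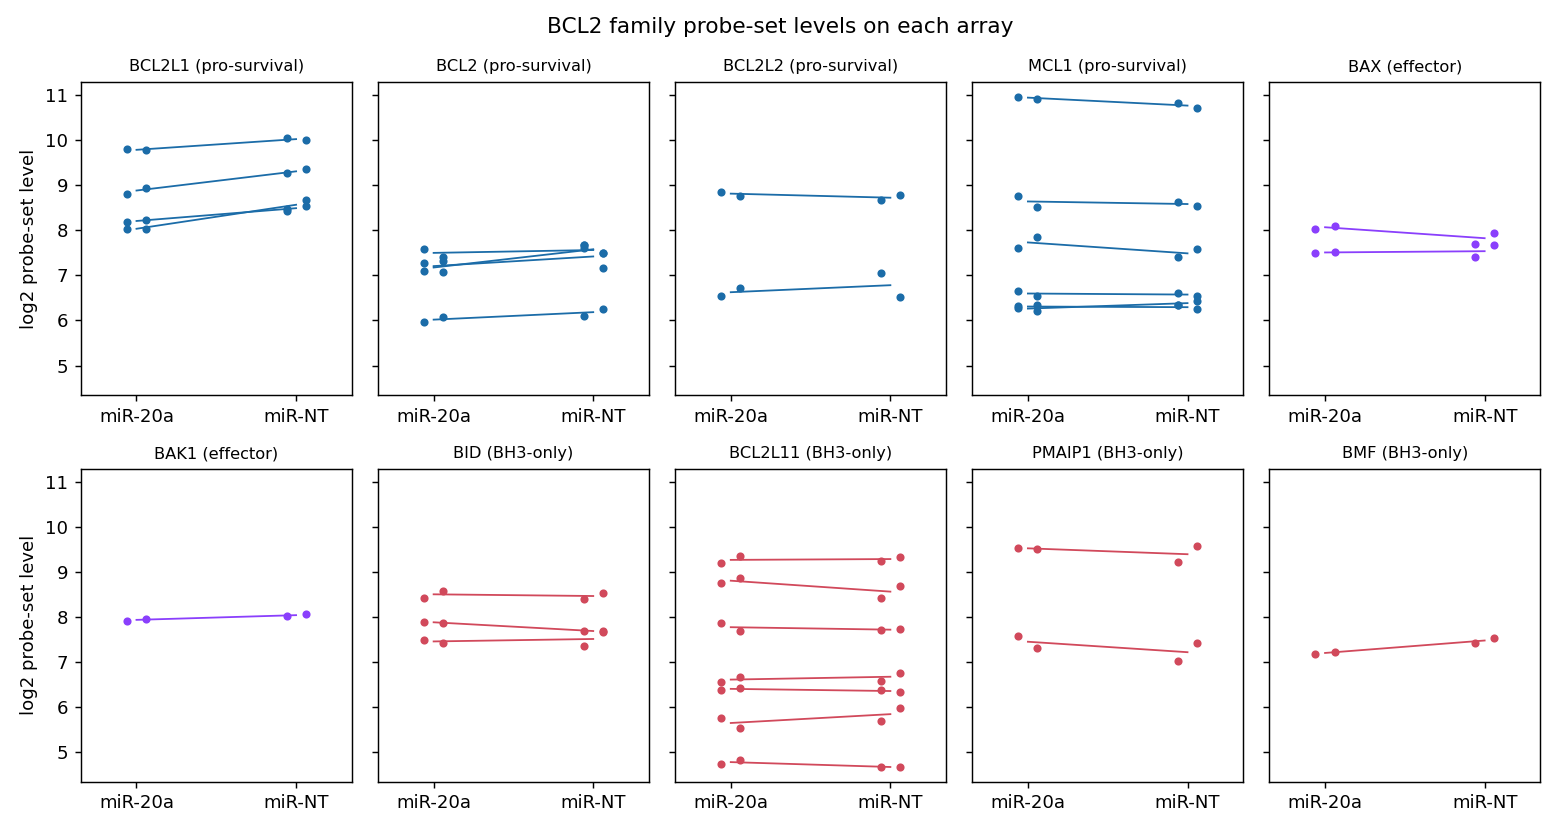
Log2 level of each probe set (vertical axis) on the 2 miR-20a arrays (left) and the 2 miR-NT arrays (right) for the 10 genes. Points are arrays, and lines join the group means of a probe set. The 4 lines of BCL2L1 all run lower on the miR-20a side, while those of MCL1 and BCL2L11 run in both directions.

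Among the pro-survival genes, BCL2L1 was lower in miR-20a cells by all 4 of its probe sets, and no array of one group reached into the other. BCL2L1 encodes BCL-xL, which binds BAX, BAK1 and the BH3-only proteins. Probe set 206665_s_at read 8.04 and 8.03 log2 units on the miR-20a arrays and 8.46 and 8.67 on the miR-NT arrays. The change was -0.53 ± 0.10 (SE, 1.45-fold lower, adjusted p = 0.13 by limma). Probe set 215037_s_at read 8.82 and 8.95 in miR-20a cells, against 9.26 and 9.36 in miR-NT cells. Its change was -0.43 ± 0.10 (SE, 1.34-fold lower, adjusted p = 0.14 by limma). The other two differed by less. Probe set 231228_at read 8.18 and 8.23 in miR-20a cells and 8.44 and 8.55 in miR-NT cells, a change of -0.28 ± 0.09. The one with the highest signal, 212312_at, read 9.79 and 9.78 in miR-20a cells and 10.04 and 10.01 in miR-NT cells, a change of -0.24 ± 0.09.

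The 95% intervals of all 4 BCL2L1 probe sets lay below 0, the widest from -0.78 to -0.29 and the nearest to 0 from -0.45 to -0.03, but none was past the threshold over the whole table. With the 4 probe sets averaged on each array, the gene read 8.71 and 8.75 in miR-20a cells and 9.05 and 9.15 in miR-NT cells, a change of -0.37 ± 0.08 (SE, adjusted p = 0.079 by limma over 18304 genes). The trend and robust fit gave adjusted p-values of 0.039 for 206665_s_at and 0.046 for 215037_s_at (limma). Of 1277 genes with 4 probe sets, 214 had all 4 lower in miR-20a cells and 31, or 2.43%, had all 4 lower without overlap between groups, while 35, or 2.74%, had all 4 higher without overlap, a count made after the values of BCL2L1 had been seen. Change tended to rise with level over the whole table (Spearman rho = 0.22), and probe sets of like level had medians above 0. The 1072 probe sets within 0.25 log2 units of the mean level of 212312_at had a median change of 0.10, the 1990 around 215037_s_at one of 0.07, and those around the other two 0.0071 and 0.0087. Quantile normalization gave changes of -0.35 for 212312_at, -0.51 for 215037_s_at, -0.31 for 231228_at and -0.56 for 206665_s_at.

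**Figure D2:**
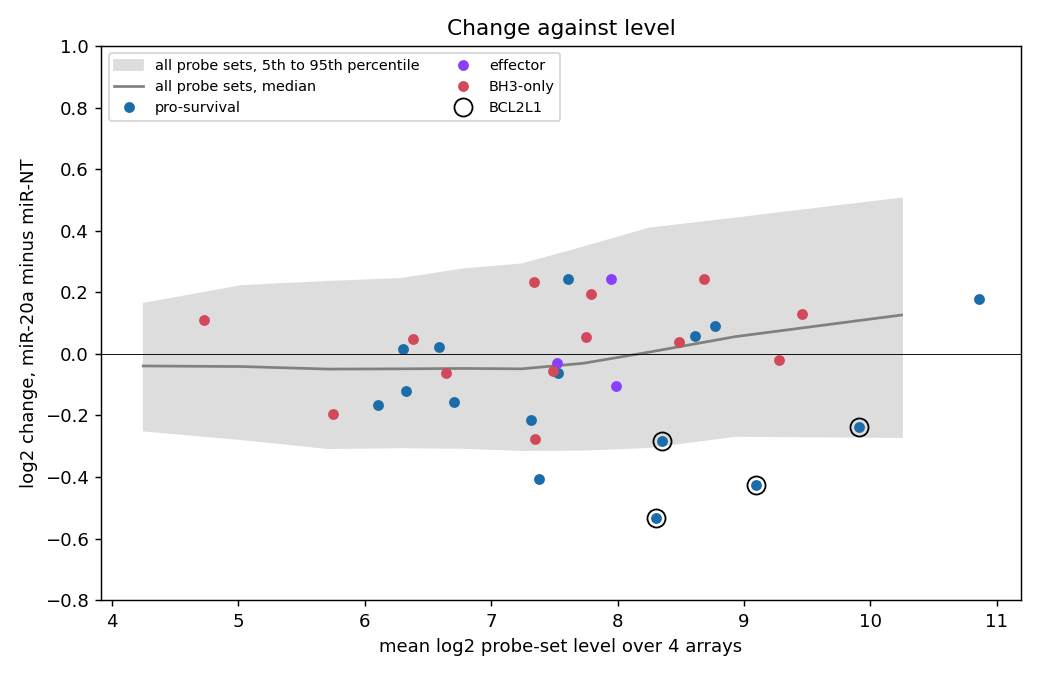
Log2 change, miR-20a minus miR-NT, of the 32 probe sets (points, coloured by role, BCL2L1 circled) against their mean log2 level over the 4 arrays. The grey line is the median and the grey area the 5th to 95th percentile of all 37465 probe sets in 10 bins of level. BCL2L1 lies between -0.24 and -0.53 at levels where the median of all probe sets is above 0.

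BCL2, the founding member of the family, also had all 4 probe sets lower on average in miR-20a cells, but its arrays were less even. Probe set 207005_s_at read 7.28 and 7.07 log2 units in miR-20a cells, against 7.67 and 7.49 in miR-NT cells. The groups did not overlap, and the change was -0.41 ± 0.11 (SE, 1.32-fold lower, adjusted p = 0.17 by limma). Over all probe sets of like level the median change was -0.05. Probe set 203685_at read 5.96 and 6.08 in miR-20a cells and 6.10 and 6.26 in miR-NT cells, again without overlap, a change of -0.17 ± 0.10. The groups overlapped for the other two. Probe set 203684_s_at read 7.10 and 7.31 in miR-20a cells and 7.68 and 7.16 in miR-NT cells, and 207004_at read 7.59 and 7.41 in miR-20a cells and 7.62 and 7.51 in miR-NT cells. Their changes of -0.21 and -0.06 turned to 0.04 without miR-NT replicate 1 and to 0.03 without miR-20a replicate 2. The mean of the 4 probe sets had a change of -0.21 ± 0.08 (SE, adjusted p = 0.23 by limma).

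MCL1, a short-lived pro-survival protein whose loss BCL-xL can offset, did not share the lower values of BCL2L1. Its probe set of highest signal, 200797_s_at, read 10.97 and 10.92 log2 units in miR-20a cells and 10.82 and 10.72 in miR-NT cells. The groups did not overlap, but the change of 0.18 ± 0.09 (SE, adjusted p = 0.36 by limma) came to 0.0013 after quantile normalization. The 510 probe sets of like level also had a median change of 0.18. Probe set 200796_s_at read 7.62 and 7.84 in miR-20a cells and 7.40 and 7.58 in miR-NT cells, a change of 0.24 ± 0.12 that was 0.27 after quantile normalization. The other 4 probe sets had changes between -0.12 and 0.06. Of the 6 probe sets 5 had a positive sign, and 3 of these turned negative when 1 array was left out, the lowest of them at -0.06 without miR-20a replicate 1. The mean of the 6 had a change of 0.07 ± 0.07 (SE, adjusted p = 0.68 by limma).

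BCL2L2, which encodes BCL-w, had probe sets of opposite sign. Probe set 209311_at read 8.86 and 8.77 log2 units in miR-20a cells and 8.67 and 8.78 in miR-NT cells, a change of 0.09 ± 0.09 (SE, adjusted p = 0.66 by limma) that was 0.03 after quantile normalization. Probe set 1555140_a_at read 6.54 and 6.71 in miR-20a cells and 7.05 and 6.52 in miR-NT cells, a change of -0.16 ± 0.17 that turned to 0.11 without miR-NT replicate 1. For both probe sets the groups overlapped.

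**Figure D3:**
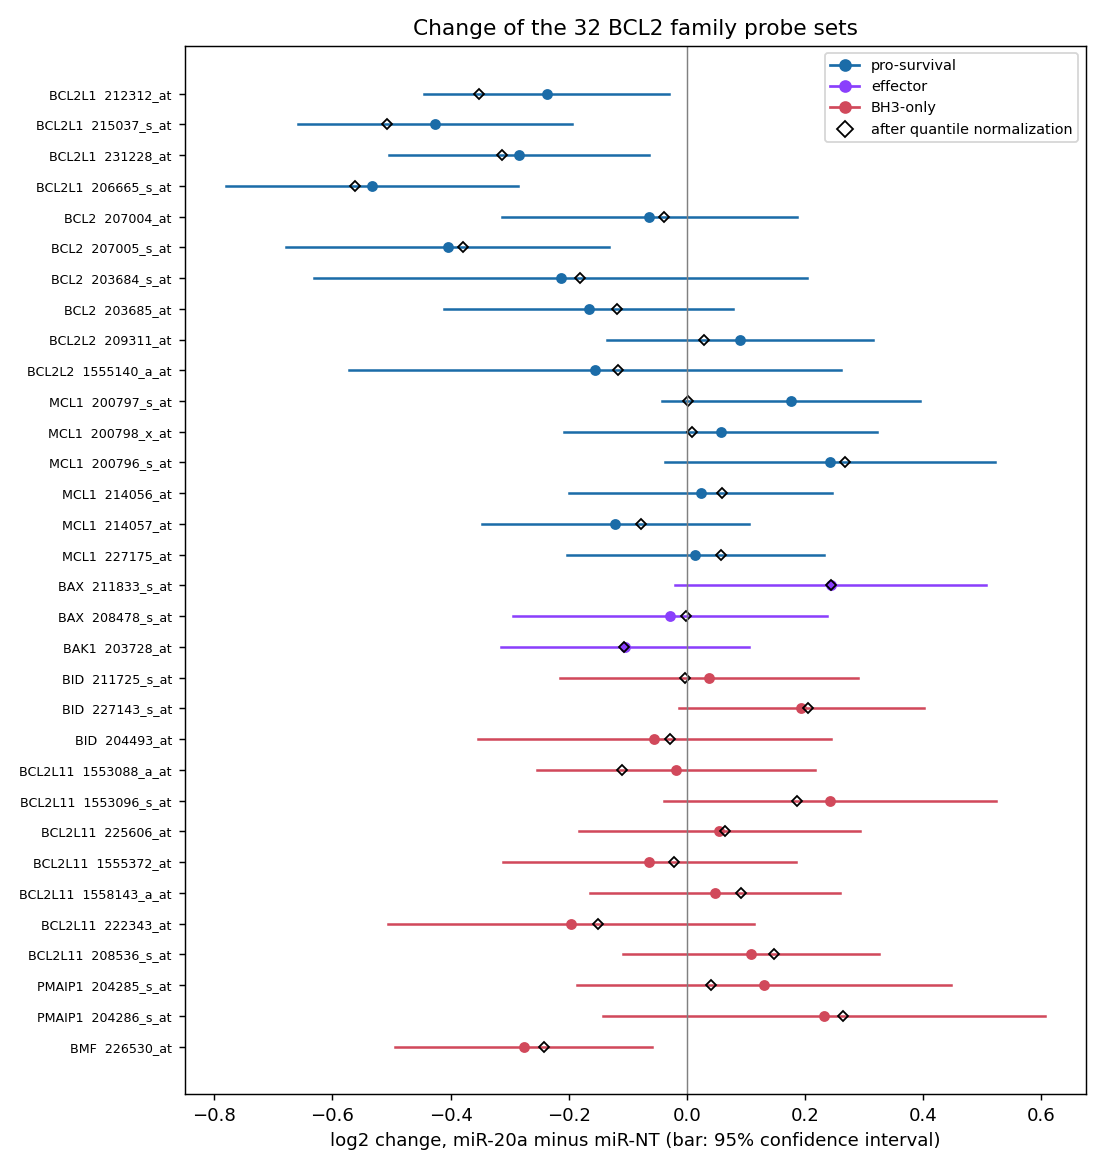
Log2 change, miR-20a minus miR-NT, of the 32 probe sets (filled points, coloured by role) with 95% confidence intervals from the limma fit. Open diamonds give the change after quantile normalization. Intervals that exclude 0 are those of the 4 BCL2L1 probe sets, 1 of BCL2 and that of BMF, and all 6 are negative.

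The pore-forming effectors BAX and BAK1 showed no shared direction. BAX probe set 211833_s_at read 8.04 and 8.10 log2 units in miR-20a cells and 7.71 and 7.95 in miR-NT cells. The groups did not overlap, and the change was 0.24 ± 0.11 (SE, adjusted p = 0.31 by limma). The second BAX probe set, 208478_s_at, read 7.50 and 7.52 in miR-20a cells, between the 7.41 and 7.66 of miR-NT cells, a change of -0.03 ± 0.11 whose sign turned under 2 other scalings and without miR-NT replicate 2. BAK1 had 1 probe set, at 7.91 and 7.96 in miR-20a cells and 8.03 and 8.06 in miR-NT cells. The groups did not overlap, with a change of -0.10 ± 0.09 (adjusted p = 0.58 by limma).

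Among the BH3-only genes, BCL2L11 (BIM), the published target, had probe sets on both sides of 0. Its probe set of highest signal, 1553088_a_at, read 9.19 and 9.34 log2 units in miR-20a cells and 9.25 and 9.33 in miR-NT cells. The change was -0.02 ± 0.10 (SE, adjusted p = 0.95 by limma), with a 95% interval from -0.25 to 0.22. Its sign turned after median centring (0.02), without miR-20a replicate 1 (0.06) and without miR-NT replicate 2 (0.02). Probe set 1553096_s_at read 8.76 and 8.86 in miR-20a cells and 8.43 and 8.70 in miR-NT cells, without overlap, a change of 0.24 ± 0.12 (adjusted p = 0.33 by limma). Probe set 225606_at read 7.86 and 7.69 in miR-20a cells and 7.70 and 7.74 in miR-NT cells, with overlap. Over all 7 probe sets of BCL2L11, 4 were higher and 3 lower, with changes between -0.20 and 0.24, and their mean had a change of 0.03 ± 0.08 (SE, adjusted p = 0.90 by limma). An array measures transcript levels only, so a change in the translation of BIM would not be seen here.

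BMF, a BH3-only protein that binds pro-survival partners after loss of attachment, was the one pro-death gene of the 6 at an unadjusted p under 0.05. Its single probe set read 7.18 and 7.23 log2 units in miR-20a cells and 7.43 and 7.53 in miR-NT cells. The groups did not overlap, and the change was -0.28 ± 0.09 (SE, 1.21-fold lower, adjusted p = 0.20 by limma). Over all probe sets of like level the median change was -0.05. The change of BMF lay between -0.32 and -0.23 under all alternatives run.

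PMAIP1, which encodes NOXA, a selective partner of MCL1, had both probe sets higher on average, with overlapping groups. Probe set 204285_s_at read 9.54 and 9.51 log2 units in miR-20a cells and 9.21 and 9.58 in miR-NT cells, a change of 0.13 ± 0.13 that was 0.04 after quantile normalization and turned to -0.05 without miR-NT replicate 1. Probe set 204286_s_at read 7.58 and 7.32 in miR-20a cells and 7.02 and 7.42 in miR-NT cells, a change of 0.23 ± 0.16 (adjusted p = 0.48 by limma). For both probe sets miR-NT replicate 1 was the low array.

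BID, which caspase-8 cleaves to link death receptors with mitochondria, had 1 of 3 probe sets without overlap. Probe set 227143_s_at read 7.90 and 7.87 log2 units in miR-20a cells and 7.69 and 7.69 in miR-NT cells, a change of 0.19 ± 0.09 (SE, adjusted p = 0.30 by limma). The other two had changes of 0.04 and -0.05, each of which turned sign when 1 array was left out.

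Set against each other, the pro-survival probe sets had a median log2 change of -0.14 and the pro-death probe sets one of 0.04, beside -0.02 over all probe sets. Of the 16 pro-survival probe sets 10 were lower and 6 higher, and of the 16 pro-death probe sets 7 were lower and 9 higher. Over all probe sets 55.1% were lower. Averaged over genes, the pro-survival level was 7.79 and 7.80 log2 units on the miR-20a arrays and 7.97 and 7.89 on the miR-NT arrays, so the groups did not overlap. The pro-death level was 7.73 and 7.74 on the miR-20a arrays, between the 7.65 and 7.82 of the miR-NT arrays.

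The lower pro-survival values lay mainly in BCL2L1. Without BCL2L1 the pro-survival level was 7.48 and 7.48 on the miR-20a arrays and 7.60 and 7.48 on the miR-NT arrays, with overlapping groups, and the median change of the remaining 12 probe sets was -0.02. The pro-survival median was 0.01 where each gene was represented by its probe set of highest signal, and 0.02 without miR-NT replicate 1. The pro-death median turned to -0.05 without miR-NT replicate 1 and to -0.06 without probe sets ending in _x_at or _s_at. The difference between the classes is a description, since the classes were given no test.

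Genes around the family were read from 5 lists. The 12 measured genes of the wider BCL2 family had 32 probe sets, of which 21 were lower and 11 higher, with a median change of -0.10, where 55.1% of the whole table were lower. None passed the threshold (limma), and 3 higher and 4 lower had an unadjusted p under 0.05, against 9.57% and 8.41% of all probe sets. BNIP3L and BNIP3, mitochondrial proteins of hypoxia and mitophagy, had both of their probe sets higher. By 221478_at BNIP3L read 10.73 and 10.54 log2 units in miR-20a cells and 10.15 and 10.29 in miR-NT cells, a change of 0.41 ± 0.11 (SE, adjusted p = 0.15 by limma). By 201849_at BNIP3 read 9.87 and 9.79 in miR-20a cells and 9.34 and 9.54 in miR-NT cells, a change of 0.39 ± 0.10. After quantile normalization the changes were 0.28 for BNIP3L 221478_at and 0.30 for BNIP3 201849_at. In the highest of 10 bins of level, which held both, the median change of all probe sets was 0.13 and the 95th percentile 0.51. BIK, a BH3-only protein of the endoplasmic reticulum, read 6.61 and 6.62 in miR-20a cells and 6.84 and 6.90 in miR-NT cells, a change of -0.26 ± 0.09.

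Downstream of the pore, 11 genes of the apoptosome, the caspases and the factors released from mitochondria had 26 probe sets, 19 higher and 7 lower, with a median change of 0.12. None passed the threshold (limma), and 6 higher and 2 lower had an unadjusted p under 0.05 (against 9.57% and 8.41% of all). Groups did not overlap for 13 that were higher and 3 that were lower (against 21.8% and 27.2% of all). DIABLO, which antagonises the inhibitors of apoptosis, read 10.05 and 10.02 log2 units in miR-20a cells and 9.69 and 9.84 in miR-NT cells, a change of 0.27 ± 0.10 (SE, adjusted p = 0.22 by limma). CASP2, an initiator caspase, had a change of 0.31 ± 0.09 by 226032_at, a sign shared by 5 of its 7 probe sets, while another CASP2 probe set was at -0.33, also without overlap. After quantile normalization the values were 0.16 for DIABLO and 0.18 for CASP2 226032_at. Both probe sets lay in the highest of the 10 bins of level, where the median change was 0.13 and the 95th percentile 0.51. CASP9, the caspase of the apoptosome, had a change of -0.34 ± 0.10 by 240437_at, a sign that its other 2 probe sets did not share.

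Among the inhibitors of apoptosis, BIRC2 rose. BIRC2 encodes cIAP1, a ubiquitin ligase that restrains caspase-8 activation downstream of tumour necrosis factor receptors. Its single probe set read 10.49 and 10.36 log2 units in miR-20a cells and 9.57 and 9.64 in miR-NT cells, a change of 0.82 ± 0.10 (SE, 1.76-fold, adjusted p = 0.0495 by limma). It was the 1 call among the 18 probe sets of 6 genes in this list, beside 0.165% of the whole table. The median change of the list was 0.01. BIRC2 lay in the highest of the 10 bins of level, where the median change was 0.13 and the 95th percentile 0.51. The call was narrow. It was lost with the replicate block (adjusted p = 0.35 by limma) and without _x_at and _s_at probe sets (adjusted p = 0.072 by limma). BIRC2 had an adjusted p of 0.055 after quantile normalization, 0.12 without miR-20a replicate 1, 0.63 without miR-NT replicate 1 and 0.30 without miR-NT replicate 2 (limma), while its change stayed between 0.70 and 0.89 under all alternatives run.

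The death receptor pathway had 13 measured genes with 42 probe sets, 27 higher and 15 lower, a median change of 0.06 and 0 past the threshold (limma). An unadjusted p under 0.05 was reached by 6 higher and 2 lower probe sets, beside 9.57% and 8.41% of all. Receptors led it. FAS read 9.15 and 9.20 log2 units in miR-20a cells and 8.72 and 8.89 in miR-NT cells, a change of 0.38 ± 0.10 (SE, adjusted p = 0.16 by limma), and all 4 of its probe sets were higher. TNFRSF10B, the TRAIL receptor DR5, read 9.29 and 9.16 in miR-20a cells and 8.89 and 8.88 in miR-NT cells, a change of 0.34 ± 0.09, with all 3 probe sets higher. TNFRSF10D, a decoy receptor of TRAIL, had a change of 0.31 ± 0.10, with both probe sets higher.

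The list of regulators and mitochondrial partners had 18 measured genes with 47 probe sets and a median change of 0.03, with 0 past the threshold (limma). There were 6 higher and 4 lower probe sets with an unadjusted p under 0.05, near the 9.57% and 8.41% of all. MTCH2, the mitochondrial receptor of cleaved BID, read 8.75 and 8.61 log2 units in miR-20a cells and 8.27 and 8.19 in miR-NT cells, a change of 0.45 ± 0.10 (SE, adjusted p = 0.13 by limma) with both probe sets higher. VDAC3, a channel of the outer mitochondrial membrane, had a change of 0.37 ± 0.11 by 208845_at, which was 0.23 after quantile normalization, and 2 of its 3 probe sets were higher. The median change in the highest of the 10 bins of level, which held 208845_at, was 0.13. RELA, the NF-kB subunit, which is known to activate BCL2L1, had a change of -0.32 ± 0.09 by 209878_s_at. Its other probe set, of higher signal, was at 0.04. A link between RELA and BCL2L1 in these cells was not tested.

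**Figure D4:**
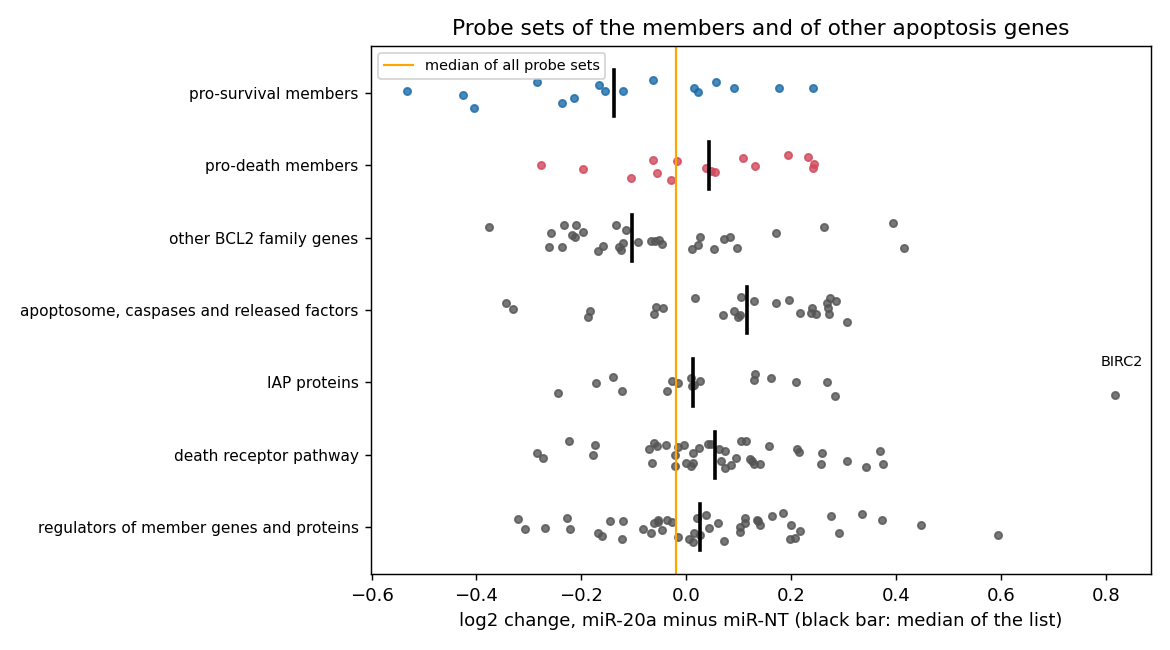
Log2 change, miR-20a minus miR-NT, of each probe set (points) of the pro-survival and pro-death members and of 5 lists of other apoptosis genes. Black bars are the medians, and the orange line is the median of all 37465 probe sets, -0.02. BIRC2 is the point at 0.82, and the pro-survival members have the lowest median, -0.14.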

How the data were processed

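Gene expression was read on 4 single-colour arrays, 2 per group, from biotin-labelled cRNA made from 6 µg of total RNA, per the labels' protocols. The deposited table gives log2 levels per probe set, of unstated normalization. Per the submitters' processing notes the R package affy was used (no version stated). How background was corrected and probes were summarized is not given in the sources used here. A log2 scale was inferred from the highest value, 15.07. The table held 41930 probe sets. Through GEO's platform annotation 37465 named 1 gene, 1727 several and 2728 none, 10 were array controls, and 0 symbols changed through Entrez identifiers and RefSeq. The annotation names no genome build, so genes are given no coordinates.

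All probe sets naming 1 gene were fitted by lmFit and eBayes of limma 3.58.1 (R 4.3.3) with a group term, with two-sided p-values and Benjamini-Hochberg adjustment. No filter on low values was applied. Values per group are single arrays, and an error is the SE of that fit, whose prior had 4.66 degrees of freedom. With 2 arrays against 2, an exact permutation test cannot go below 0.333. No label says that replicate arrays stem from different cultures, so p-values cover the spread between these arrays, which may be technical. Precision is limited by the number of arrays. The fit was tested on simulated data.

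The members and lists were chosen with earlier results of these data known. All 10 members were named whatever their value, and from each list every gene past the threshold, or otherwise the 3 with the smallest p. Alternatives were a replicate block, 3 other scalings, a filter on low levels, eBayes with trend and robust estimation, 1 probe set or the probe-set mean per gene, dropping _x_at and _s_at probe sets, 2 further thresholds, and omitting each array.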

Additional observations from a re-analysis of the deposited data

Results flagged for a closer look

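A probe set that names BCL2L2 together with 2 other genes, PABPN1 and the read-through gene of both, was left out of the comparisons and had both miR-20a arrays above both miR-NT arrays. It read 10.62 and 10.63 log2 units in miR-20a cells and 10.53 and 10.54 in miR-NT cells, a difference of 0.088, and which of its genes it measures is not known. Of all probe sets that name 1 gene, 21.8% were likewise higher without overlap. In the highest of the 10 bins of level their median change was 0.13.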

How the results depend on the processing

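Only 3 scalings and the 4 arrays left out in turn can move a probe set's change, since the other settings alter its test alone. Under these 7 the 4 BCL2L1 probe sets stayed negative in all 28 values. Over all 32 probe sets of the family, 21 of 224 such values turned sign, 17 of them with an array left out, and 19 probe sets never turned. Outside the arrays left out, the turned values were BID 211725_s_at at -0.0023 after quantile normalization, BAX 208478_s_at at 0.0056 after median centring and 0.0074 after cyclic loess, and BCL2L11 1553088_a_at at 0.015 after median centring. With each array left out in turn, the range was -0.16 to 0.0996 for BAX 208478_s_at, -0.47 to 0.042 for BCL2 203684_s_at, -0.15 to 0.028 for BCL2 207004_at, -0.42 to 0.11 for BCL2L2 1555140_a_at, -0.21 to 0.11 for BID 204493_at, -0.044 to 0.12 for BID 211725_s_at, and -0.052 to 0.31 for PMAIP1 204285_s_at. For BCL2L11 it was -0.094 to 0.057 (1553088_a_at), -0.16 to 0.031 (1555372_at) and -0.034 to 0.14 (225606_at), and for MCL1 -0.0645 to 0.18 (200798_x_at), -0.036 to 0.082 (214056_at) and -0.029 to 0.0575 (227175_at). The cause of these turns was not tested. The number of family probe sets past the threshold was 2 with the trend and robust fit, 6 at an unadjusted p under 0.05 and 0 with each array left out. Over all probe sets the number was 381 without the lowest 40% by level, 936 with the trend and robust fit, 153 with probe sets averaged per gene, 19 without _x_at and _s_at probe sets, 175 at an adjusted p under 0.1, 6735 at an unadjusted p under 0.05, and 0 to 73 with each array left out, 0 without miR-NT replicate 1 and without miR-NT replicate 2. Over the 5 lists it was 2 with the trend and robust fit, 0 to 1 with arrays left out, and 0 after quantile normalization, after cyclic loess and without _x_at and _s_at probe sets. The pro-survival median was -0.097 after quantile normalization, -0.081 after cyclic loess, 0.013 with the highest probe set per gene and -0.15 to 0.015 with arrays left out. The pro-death median was -0.059 without _x_at and _s_at probe sets and -0.045 to 0.10 with arrays left out. Titles share replicate numbers, but deviations of same-numbered arrays correlated at -0.12, so the numbers were not taken as pairs. With a replicate block 0 of all probe sets, 0 of the family and 0 of the lists passed, which leaves 1 residual degree of freedom. The crossed pairing, added after seeing the data, also gave 0 for each. The values carry no detection calls, so low signals cannot be told from background.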
